A study of Morchella sextelata with 15 samples.

Results

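Mycelium of Morchella sextelata, the cultivated black morel, was sequenced after growth on dinitroaniline herbicides and on chloroacetanilide herbicides, and the herbicide classes were set against each other. The dinitroanilines were trifluralin and pendimethalin, and the chloroacetanilides were S-metolachlor and acetochlor. The comparison used 12 of the 15 RNA-seq libraries of the series, 6 per class and 3 per herbicide, chosen by their treatment labels alone. The other 3 libraries came from control mycelium on medium without herbicide and serve as the background. Each herbicide kept its own mean, and the value of a class is the average of its 2 herbicide means, so neither herbicide outweighs the other. All groups were labelled wild type and grew on PDA, potato dextrose agar, at 20 °C for 5 days. Each herbicide was present at 10 times its own normal application concentration. The doses were therefore matched as multiples of each product's rate, and the concentrations themselves are not given. Growth was not analysed here. The labels do not say whether the libraries of a group came from separate cultures, so the p-values measure the spread between these libraries, which may be technical.

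Both classes are used against germinating weeds, and they act on different targets in plants. Dinitroanilines bind plant tubulin and stop microtubules from assembling in dividing root cells. Chloroacetanilides block the elongases that build very-long-chain fatty acids, which plants need for membranes and surface waxes. Trifluralin and pendimethalin share a dinitroaniline core. Trifluralin has a trifluoromethyl group on its ring and a dipropyl amine, whereas pendimethalin has methyl groups on its ring and an amine with a branched alkyl chain. The chloroacetanilides are both built on an aniline with ethyl and methyl substituents that bears a chloroacetyl group, and their structures part at the alkoxyalkyl chain of the nitrogen. The deposited files do not pair their transcript identifiers with gene names, and none of the 20602 row names matched the 13182 genes of the RefSeq table of the organism. Transcripts of tubulin, of fatty acid elongases or of any other gene group could therefore not be looked up, and the label mycelium could not be checked against marker genes. Transcripts are given by their assembly names without the prefix TRINITY_.

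The totals were 24071293 to 24766457 expected counts per dinitroaniline library, 22923346 to 24592427 per chloroacetanilide library and 23921235 to 24309184 per control library. An expected count is the estimated number of fragments assigned to a transcript. Levels are given in CPM, counts as a share of the library total, scaled to a common total, after a correction of library size. CPM is a share of a library, so less RNA of 1 transcript per cell and fewer cells that express it cannot be told apart. Of 20602 transcripts, 17555 had enough counts to be tested. Differences are on the log2 scale with an approximate standard error (SE), as the first-named group minus the second. A transcript is called where the adjusted p of edgeR's quasi-likelihood test was under 0.05, with the Benjamini-Hochberg adjustment made over all transcripts within each comparison and not over the comparisons.

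Across all tested transcripts, acetochlor libraries correlated more closely with dinitroaniline and with control libraries than with those of S-metolachlor, the other chloroacetanilide. The Spearman correlation between a dinitroaniline library and an acetochlor library had a median of 0.935 over 18 pairs and a range of 0.917 to 0.954. Between a dinitroaniline library and an S-metolachlor library the median was 0.866, with a range of 0.822 to 0.886. These ranges did not overlap. Acetochlor and S-metolachlor libraries correlated at a median of 0.850 over 9 pairs, whereas pendimethalin and trifluralin libraries correlated at a median of 0.947. Acetochlor and control libraries correlated at a median of 0.935 over 9 pairs (0.918 to 0.946), the same median as acetochlor and dinitroaniline libraries. Calls gave a different order. Acetochlor had 9.72% of transcripts called against control, 2.19% against trifluralin and 2.35% against pendimethalin. These are correlations across transcripts, which are not independent replicates. Within pendimethalin, replicate 3 correlated at 0.924 and 0.927 with the other libraries, which correlated with each other at 0.954. Results were also computed with each library left out. Since the filter adapts to the smaller group, such a fit tested 18040 to 18486 transcripts. In the moves given below, the missing library and the wider tested set cannot be told apart, and the cause of the moves was not tested.

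**Figure D1:**
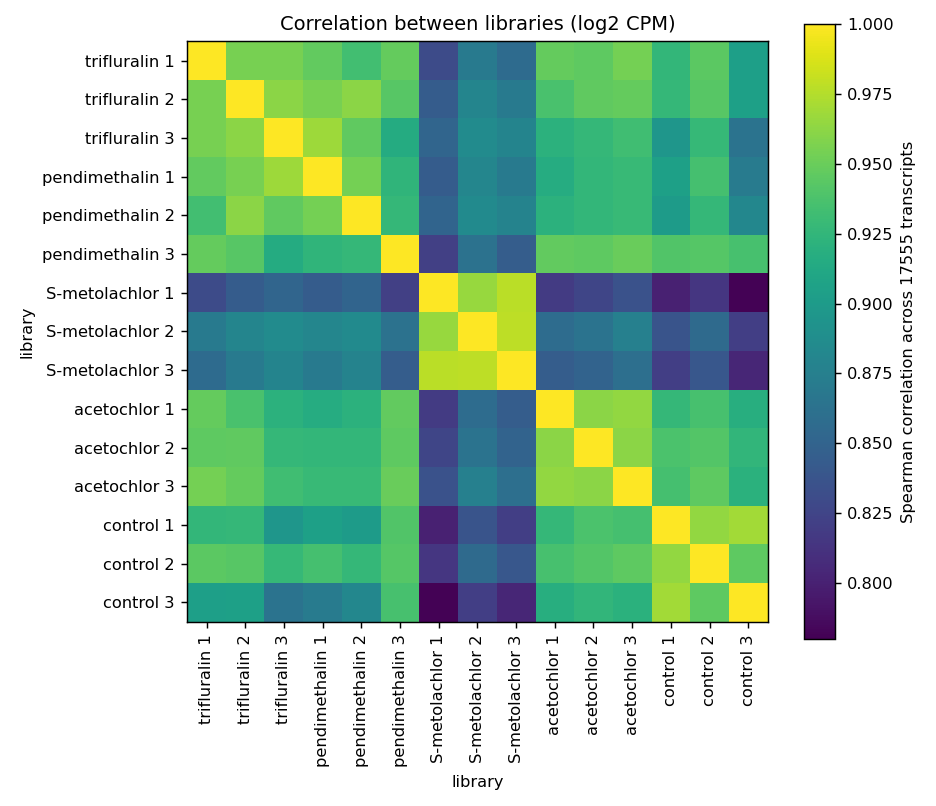
Spearman correlation of log2 CPM across the 17555 tested transcripts, for each pair of the 15 libraries, with herbicide and control libraries on both axes and the colour scale giving the correlation. The 3 S-metolachlor libraries form a block of their own, and acetochlor libraries correlate with dinitroaniline libraries at a median of 0.935, against 0.850 with S-metolachlor libraries.

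The dinitroaniline and chloroacetanilide classes differed in 4191 of the 17555 transcripts, or 23.9%. In the dinitroaniline libraries 2209 transcripts were called higher, 12.6% of those tested, and 1982 were called lower, 11.3% of those tested. The class difference was at least 2-fold in 2241 of the 4191. The median size of the difference was 1.07 among called transcripts and 0.47 among all tested transcripts. The 95% interval of the class difference lay within 2-fold in either direction for 7146 transcripts, or 40.7%. The libraries of the classes did not overlap in 650 transcripts, 3.70% of all tested, and 614 of these were among the 4191 called.

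The class call rests on the spread between libraries, and it depends on what is taken as the unit. With 1 mean per class and its 6 libraries as the units, edgeR called 2293 transcripts, of which 906 were higher and 1387 lower in dinitroanilines. With the herbicide means as the units, 2 per class, limma called 0 transcripts. In that fit 840 transcripts had an unadjusted p under 0.05, where the threshold alone gives 878, and the smallest adjusted p was 0.811. The 4191 calls therefore describe these 4 herbicides and not dinitroanilines and chloroacetanilides in general.

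Each chloroacetanilide was set against the dinitroaniline mean to see whether both carried the class difference. Against S-metolachlor, 7246 transcripts were called, or 41.3%, with 3417 higher and 3829 lower in dinitroanilines. Against acetochlor, 1029 were called, or 5.86%, with 453 higher and 576 lower in dinitroanilines. The difference between the dinitroaniline mean and acetochlor had a 95% interval within 2-fold for 6500 transcripts, or 37.0%, and the median half-width of that interval was 0.81. The smaller count against acetochlor is thus no evidence that the remaining transcripts were alike. Leaving out a single library moved the acetochlor count strongly, to 2220 without pendimethalin replicate 3 and to 251 without acetochlor replicate 1. It was under 1029 by more than 1.5 times also without trifluralin replicates 2 and 3 (557 and 383), without pendimethalin replicates 1 and 2 (425 and 616), and without S-metolachlor replicates 1, 2 and 3 (620, 623 and 570). The same held without acetochlor replicates 2 and 3 (344 and 646) and without control replicate 1 (665). The balance of directions moved too. It was 1168 higher and 1052 lower without pendimethalin replicate 3, 51 and 200 without acetochlor replicate 1, and 184 and 462 without acetochlor replicate 3. Against S-metolachlor, the count without 1 library was 5344 to 7730.

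Of the 4191 class calls, 3759 (89.7%) were also called with the same sign against S-metolachlor alone, and 611 (14.6%) against acetochlor alone. The share of 14.6% was 28.7% without pendimethalin replicate 3, 4.44% and 6.22% without acetochlor replicates 1 and 2, 9.47% and 6.93% without trifluralin replicates 2 and 3, and 7.69% without pendimethalin replicate 1. The comparisons share the dinitroaniline libraries, and each is also a component of the class difference, so these shares describe the class calls and are no independent evidence. Both were called in the class direction in 393 transcripts (9.38%), 209 higher and 184 lower in dinitroanilines. That count was 842 without pendimethalin replicate 3. It was 211 and 154 without trifluralin replicates 2 and 3, 169 and 251 without pendimethalin replicates 1 and 2, 205, 222 and 189 without S-metolachlor replicates 1, 2 and 3, and 112, 150 and 231 without acetochlor replicates 1, 2 and 3. Among the class calls, the median size of the difference was 1.53 between the dinitroaniline mean and S-metolachlor and 0.55 between the dinitroaniline mean and acetochlor. S-metolachlor lay farther than acetochlor from the dinitroaniline mean in 3576 of the 4191 (85.3%). Acetochlor lay on the other side of the dinitroaniline mean in 603 (14.4%), and in 24 of these that opposite difference was called.

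**Figure D2:**
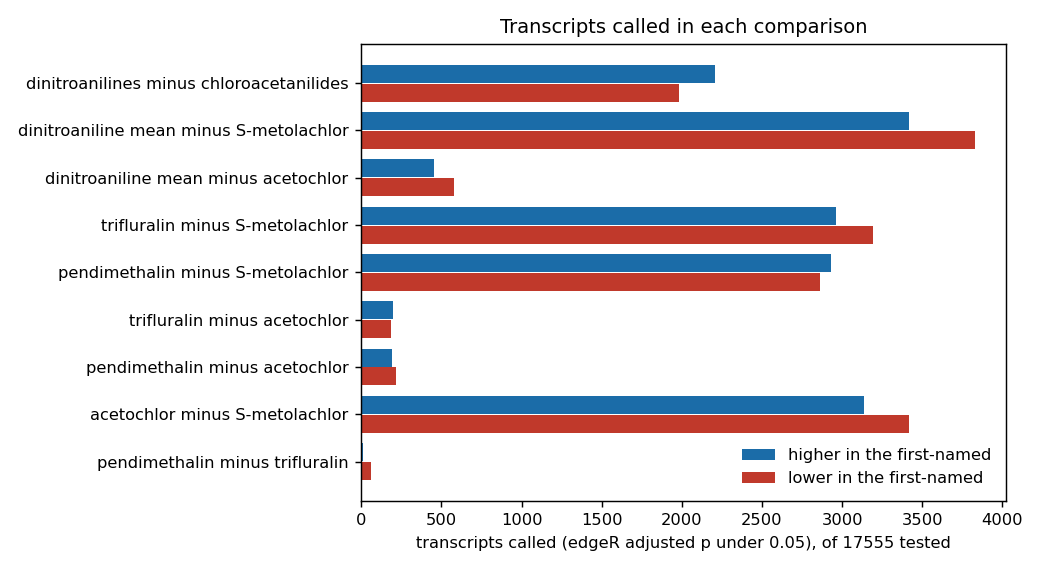
Number of transcripts called higher (upper bar) and lower (lower bar) in the first-named group, for the class comparison, each cross-class comparison and both comparisons within a class (edgeR adjusted p under 0.05, of 17555 tested). Every comparison with S-metolachlor holds at least 5796 calls, the class comparison holds 4191, and every comparison of a dinitroaniline with acetochlor holds at most 1029.

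The class members were then compared one by one in 4 cross-class pairs. Trifluralin minus S-metolachlor had 6153 calls, or 35.0%, with 2960 higher and 3193 lower in trifluralin. Pendimethalin minus S-metolachlor had 5796 calls, or 33.0%, with 2933 higher and 2863 lower in pendimethalin. Trifluralin minus acetochlor had 384 calls, or 2.19%, with 201 higher and 183 lower in trifluralin. Pendimethalin minus acetochlor had 413 calls, or 2.35%, with 194 higher and 219 lower in pendimethalin. Both counts against acetochlor moved with single libraries. Trifluralin minus acetochlor had 889 calls without pendimethalin replicate 3, a library that is in neither group but enters the shared estimate of spread and the filter. It had 142, 45 and 34 calls without trifluralin replicates 1, 2 and 3, 148, 176 and 133 without S-metolachlor replicates 1, 2 and 3, 46 and 105 without acetochlor replicates 1 and 2, and 165 without control replicate 1. Pendimethalin minus acetochlor had 133, 209 and 1329 calls without pendimethalin replicates 1, 2 and 3, 272 and 268 without S-metolachlor replicates 2 and 3, and 174 and 251 without acetochlor replicates 1 and 2.

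Within the classes, the members were unlike in the chloroacetanilides and seldom told apart in the dinitroanilines. Acetochlor minus S-metolachlor had 6555 calls, or 37.3%, with 3137 higher and 3418 lower in acetochlor. Pendimethalin minus trifluralin had 72 calls, or 0.410%, with 12 higher and 60 lower in pendimethalin. That count was 45 and 34 without trifluralin replicates 1 and 3, and 37 and 29 without pendimethalin replicates 1 and 2. The 95% interval of pendimethalin minus trifluralin lay within 2-fold for 38.4% of the transcripts that had one, so most transcripts were not shown to be alike. Against the control mycelium, trifluralin had 14.7% of transcripts called, pendimethalin 12.9%, S-metolachlor 46.1% and acetochlor 9.72%.

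Both herbicides of each class stood on the same side of both herbicides of the other class in 3227 of the 4191 class calls (77.0%), by the sign of all 4 pairs. The same held for 7086 of all 17555 tested transcripts (40.4%). The class difference is the average of these 4 pairs, so a higher share among class calls is partly built in and is no independent evidence of agreement. Called pairs were fewer. None of the 4 pairs was called in 338 class calls, 1 pair in 554, 2 pairs in 3108, 3 pairs in 127 and all 4 pairs in 64. In 2990 of the 4191 (71.3%) the called pairs were exactly both pairs with S-metolachlor. Exactly both pairs with acetochlor were called in 43, both with trifluralin in 37 and both with pendimethalin in 38. A pair was called against the class direction in 38.

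The herbicides of a class disagreed far more often in the chloroacetanilides. Acetochlor minus S-metolachlor was called in 2463 of the 4191 class calls (58.8%, against 37.3% of all tested). Pendimethalin minus trifluralin was called in 38 (0.907%, against 0.410% of all tested). In 1722 class calls (41.1%) neither comparison within a class was called. The difference between acetochlor and S-metolachlor was larger than the class difference in 2144 class calls (51.2%, against 69.3% of all tested). That between pendimethalin and trifluralin was larger in 183 (4.37%, against 36.9% of all tested). Both shares were below those of all tested transcripts. This is largely built in, since the class calls were chosen by their class difference. Across the 22 alternatives that fit each herbicide by itself, including each library left out, 49.4% to 63.1% of the class calls had acetochlor and S-metolachlor called apart.

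Pairs that share no library compare separate libraries. They were still tested in the same model, which shares the filter, the scaling of libraries and each transcript's estimate of spread. The shares below are therefore not independent evidence of a class difference. Of the 201 transcripts higher in trifluralin than in acetochlor, 92 (45.8%) were also called higher in pendimethalin than in S-metolachlor, against 16.7% of all tested. The opposite call was made in 27 (13.4%, against 16.3%). Of the 183 transcripts lower in trifluralin than in acetochlor, 60 (32.8%) were called lower in pendimethalin than in S-metolachlor, against 16.3%. The opposite call was made in 29 (15.8%, against 16.7%). The share of 45.8% was 34.6% to 55.8% across the alternatives. The share of 32.8% was 25.6% to 58.8%, with 57.9% and 50% without trifluralin replicates 2 and 3, and 58.8% and 57.1% without acetochlor replicates 1 and 2. As shares of the longer lists, the 92 were 3.14% of the 2933 higher in pendimethalin than in S-metolachlor, and the 60 were 2.10% of the 2863 lower.

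The crossed pairs gave a different picture. Of the 194 transcripts higher in pendimethalin than in acetochlor, 55 (28.4%) were called higher in trifluralin than in S-metolachlor, against 16.9% of all tested. The opposite call was made in 48 (24.7%, against 18.2%), so both shares were above those of all tested. Of the 219 transcripts lower in pendimethalin than in acetochlor, 48 (21.9%) were called lower in trifluralin than in S-metolachlor, against 18.2%. The opposite call was made in 103 of these 219 (47.0%, against 16.9%), so more of them ran against the class direction than with it. As shares of the longer lists, the 55 were 1.86% of 2960, the 48 lower in both were 1.5% of 3193 and the 103 were 3.48% of 2960. Across the alternatives, the share of 28.4% was at most 39.5%, that of 21.9% was 18.5% to 26.7% and that of 47.0% was 30.4% to 65.3%. Across all tested transcripts, the Spearman correlation between the differences was 0.05 for trifluralin minus acetochlor with pendimethalin minus S-metolachlor, and 0.02 for the crossed pairs.

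**Figure D3:**
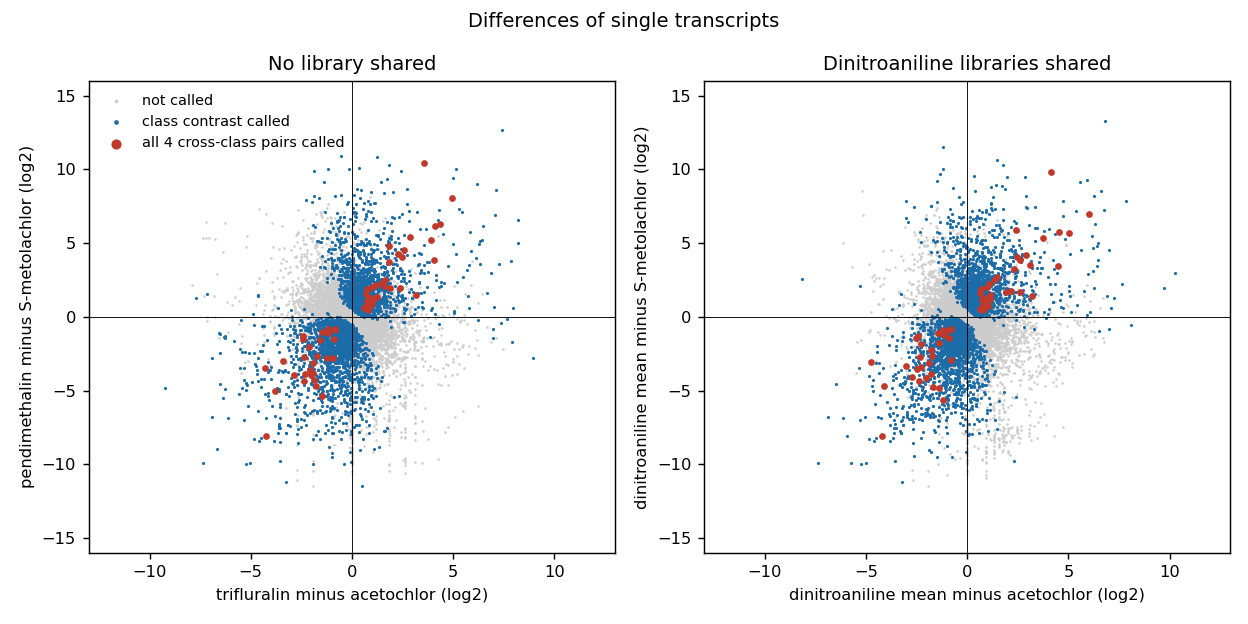
Each point is 1 of the 17555 tested transcripts, with log2 differences on both axes. On the left, trifluralin minus acetochlor (x) is set against pendimethalin minus S-metolachlor (y), which share no library. On the right, the dinitroaniline mean minus acetochlor (x) and minus S-metolachlor (y) share the dinitroaniline libraries, so a common trend there is partly built in. Blue points mark the 4191 class calls and red points the 64 transcripts called in all 4 cross-class pairs, and the blue cloud is taller than it is wide.

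The called sets also differed in how much of each library they held, which describes the sets chosen from these values. The 2209 transcripts called higher in dinitroanilines took 29.5% of the counts in trifluralin, 27.6% in pendimethalin, 10.3% in S-metolachlor, 23.1% in acetochlor and 29.9% in control libraries (SD 0.295 to 2.36, n = 3 each). The 1982 called lower took 6.66%, 6.76%, 23.5%, 10.2% and 8.45% in the same order (SD 0.366 to 0.842). In both sets S-metolachlor stood apart from the other 4 groups, and acetochlor was nearer to the dinitroanilines and the control than to S-metolachlor. No transcript was called to one side of control under both dinitroanilines and to the other side under both chloroacetanilides, by edgeR or by DESeq2. At an unadjusted edgeR p under 0.05 in all 4 comparisons with control there were 3.

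Abundance and the form of the assembly name moved with the class calls. Transcripts were ordered by mean level and cut into 4 bins of equal size. Of the least abundant bin 11.2% were called, with 125 higher and 365 lower in dinitroanilines, and of the most abundant bin 35.2% were called, with 1063 higher and 481 lower. Assembly names end in a digit that the sources used here leave unexplained. Among called transcripts with names ending in 4, 667 were higher and 133 lower in dinitroanilines (83.4% higher). Among those ending in 1, 433 were higher and 701 lower (38.2% higher). Their part in the class difference was not tested. Complete absence seldom followed class lines. In all 20602 transcripts, 2 had counts in all 6 dinitroaniline libraries and none in any chloroacetanilide library, and 1 had the reverse. By contrast, 367 had counts in all 3 S-metolachlor libraries and in none of the 9 other herbicide libraries, against 2 for acetochlor.

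In 64 transcripts, 0.365% of those tested, all 4 cross-class pairs were called in the direction of a called class difference. Of these 35 were higher and 29 lower in dinitroanilines. The size of the class difference was 0.58 to 7.00 with a median of 1.82 among the 35, and 0.81 to 6.16 with a median of 2.51 among the 29. In all 64 the libraries of the classes did not overlap, against 3.70% of all tested transcripts. The choice by 4 called pairs largely builds this in. Of the 64, 40 differed at least 2-fold in every pair. Acetochlor and S-metolachlor were called apart in 24 of the 64 (37.5%, against 37.3% of all tested). Pendimethalin and trifluralin were called apart in 2 (3.12%, against 0.410% of all tested), and neither comparison within a class was called in 39. S-metolachlor was still the farther of the chloroacetanilides in 45. The median size was 2.25 against S-metolachlor, 1.74 against acetochlor, 0.92 between acetochlor and S-metolachlor and 0.20 between pendimethalin and trifluralin.

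The number 64 moved when libraries were left out. It was 197 without pendimethalin replicate 3, of which 58 were among the 64, and 12 without trifluralin replicate 2 or replicate 3. It was also under 64 by more than 1.5 times without trifluralin replicate 1 (33), pendimethalin replicates 1 and 2 (24 and 39), S-metolachlor replicates 1, 2 and 3 (31, 34 and 29), acetochlor replicates 1 and 2 (13 and 23) and control replicate 1 (35). The balance of 35 higher and 29 lower in dinitroanilines moved as well. It was 144 higher and 53 lower without pendimethalin replicate 3, and it turned to 2 and 11, 9 and 14, and 17 and 33 without acetochlor replicates 1, 2 and 3. It also turned without trifluralin replicate 2 (5 and 7) and without S-metolachlor replicates 1, 2 and 3 (13 and 18, 16 and 18, 12 and 17). DESeq2 gave 289, which held all 64.

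Below, the herbicides of a class are said to agree where both stood on the same side of each herbicide of the other class and were not called apart, which does not show that their levels were equal. The largest class differences with no overlap between the libraries of the classes were taken first, 2 transcripts higher and 2 lower. The level of DN3895_c0_g1_i2_4 was 1121, 2600 and 1555 CPM in trifluralin, 2321, 4946 and 5209 in pendimethalin, 3.48, 2.81 and 2.54 in S-metolachlor, and 50.9, 348.6 and 55.1 in acetochlor. Control libraries had 748.9, 243.8 and 331.4 CPM. Every dinitroaniline library was above every control library, and every S-metolachlor library was far below. The class difference was 7.00 ± 0.62 (edgeR adjusted p = 2.28e-05), and all 4 pairs were called. All 4 were called in 13 of the 22 alternatives, and 3 were called with the replicate block and without each trifluralin replicate, each S-metolachlor replicate, acetochlor replicate 1 or acetochlor replicate 3. Both dinitroanilines agreed, with pendimethalin minus trifluralin at 1.24 ± 0.68 (edgeR adjusted p = 0.778). Both chloroacetanilides were lower than both dinitroanilines but differed from each other by 5.68 ± 0.82 (edgeR adjusted p = 0.000277). Without acetochlor replicate 2, its highest acetochlor library, the class difference was 7.78.

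DN2242_c0_g1_i1_1 had 22.2, 197.7 and 22.4 CPM in trifluralin and 17.7, 37.8 and 108.9 in pendimethalin. It had 0.712, 0.0769 and 0.397 CPM in S-metolachlor and 2.97, 16.4 and 6.75 in acetochlor. All 12 herbicide libraries were below the control libraries, which had 978.2, 688.8 and 1347 CPM. The class difference was 5.16 ± 0.78 (edgeR adjusted p = 0.000655), and 4.24 without trifluralin replicate 2. Both dinitroanilines agreed, at a difference of -0.56 ± 0.90 (edgeR adjusted p = 0.968). The chloroacetanilides did not agree. Both pairs with S-metolachlor were called, neither pair with acetochlor was, and acetochlor exceeded S-metolachlor by 4.44 ± 1.13 (edgeR adjusted p = 0.00837).

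Among transcripts lower in dinitroanilines, DN5579_c0_g2_i1_1 had 3.44, 2.65 and 3.80 CPM in trifluralin and 0, 0 and 0.164 in pendimethalin. It had 72.5, 39.6 and 66.6 CPM in S-metolachlor, 4.32, 4.59 and 3.93 in acetochlor, and 0.0464, 0 and 1.95 in control libraries. Trifluralin and acetochlor libraries were nearly level, and the class difference of -5.19 ± 0.80 (edgeR adjusted p = 0.000755) was -6.91 without pendimethalin replicate 3. The pairs were called in 3 of 4 cases, all but trifluralin minus acetochlor at -0.38 ± 0.87 (edgeR adjusted p = 0.846). The chloroacetanilides disagreed, with acetochlor minus S-metolachlor at -3.80 ± 0.94 (edgeR adjusted p = 0.00761). The dinitroanilines agreed in sign and were not called apart, although their libraries did not overlap and pendimethalin minus trifluralin was -5.82 ± 1.29 (edgeR adjusted p = 0.104). They were called apart in 6 of the 22 alternatives. These were DESeq2, both limma fits, the 12 herbicide libraries alone, and edgeR without control replicate 2 or 3 (adjusted p = 0.0379 and 0.00344).

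The levels of DN5538_c0_g1_i1_5 were 6.10, 5.34 and 7.75 CPM in trifluralin, 3.95, 4.44 and 4.07 in pendimethalin, 141.0, 126.2 and 138.7 in S-metolachlor, and 15.3, 55.4 and 197.9 in acetochlor. Control libraries had 4.83, 2.68 and 4.95 CPM, within the range of the dinitroanilines or just under it. The classes differed by -4.42 ± 0.48 (edgeR adjusted p = 7.89e-05), and all 4 pairs were called. Both herbicides of each class agreed. Acetochlor minus S-metolachlor was -0.60 ± 0.59 (edgeR adjusted p = 0.458) and pendimethalin minus trifluralin was -0.62 ± 0.61 (edgeR adjusted p = 0.920). The acetochlor libraries spread widely, and the difference between the classes was -3.74 without acetochlor replicate 3. Acetochlor and S-metolachlor were then called apart (edgeR adjusted p = 0.00724), so their agreement rests on that library. All 4 pairs were called in 19 of the 22 alternatives, and 3 pairs were called without each trifluralin replicate.

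Agreement of both classes was then made the rule. The next 4 transcripts had all 4 pairs called, neither comparison within a class called, and the largest smallest difference of the 4 pairs. DN4877_c0_g1_i1_1 had 19.7, 12.9 and 2.73 CPM in trifluralin, 5.00, 7.86 and 17.0 in pendimethalin, 0.395, 0.231 and 0.159 in S-metolachlor, and 0.315, 1.78 and 0.309 in acetochlor. The control values of 11.8, 3.06 and 7.05 CPM fell within the dinitroaniline range. Between the classes the difference was 4.55 ± 0.65 (edgeR adjusted p = 0.000464). Both acetochlor pairs lay close to the threshold (edgeR adjusted p = 0.0446 and 0.0481). All 4 pairs were called in only 6 of the 22 alternatives. Without acetochlor replicate 2 the class difference was 5.24.

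DN3719_c0_g1_i2_2 had 235.6, 581.9 and 73.9 CPM in trifluralin and 171.6, 657.1 and 716.7 in pendimethalin. The chloroacetanilide libraries were lower and closer together, with 37.8, 35.8 and 35.1 CPM in S-metolachlor and 12.8, 24.6 and 15.7 in acetochlor. Control libraries lay between the classes except for 1 trifluralin library below them, with 152.9, 79.8 and 101.6 CPM. The class difference came to 3.95 ± 0.49 (edgeR adjusted p = 0.000171), and here acetochlor was the farther chloroacetanilide, at 4.47 ± 0.68, against 3.43 ± 0.64 for S-metolachlor. All 4 pairs stayed called in 20 of the 22 alternatives.

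Of the transcripts lower in dinitroanilines, DN1992_c0_g1_i1_2 had 1.88, 0.441 and 1.22 CPM in trifluralin and 1.80, 1.77 and 2.22 in pendimethalin. It had 28.5, 5.65 and 12.03 CPM in S-metolachlor, 20.1, 8.11 and 9.02 in acetochlor, and 5.94, 4.73 and 7.80 in control libraries. Control libraries were above every dinitroaniline library. Class means differed by -3.19 ± 0.44 (edgeR adjusted p = 0.000369), of nearly equal size against S-metolachlor (-3.35 ± 0.48) and acetochlor (-3.03 ± 0.48). All 4 pairs were called in 14 of the 22 alternatives.

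The levels of DN895_c0_g1_i1_3 were 3.32, 1.77 and 3.57 CPM in trifluralin, 0.977, 0.605 and 3.25 in pendimethalin, 17.4, 19.4 and 15.96 in S-metolachlor, and 4.95, 43.1 and 123.4 in acetochlor. Control libraries had 4.78, 2.43 and 3.70 CPM, between or just above the dinitroaniline values. Across the classes the difference was -3.88 ± 0.63 (edgeR adjusted p = 0.00107), and -3.25 without acetochlor replicate 3. All 4 pairs were called in only 7 of the 22 alternatives. In these 4 transcripts both herbicides of each class agreed by the rule that chose them. For DN895_c0_g1_i1_3, acetochlor and S-metolachlor were called apart without acetochlor replicate 1 (edgeR adjusted p = 0.0147).

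Among the transcripts with 4 called pairs that were not named above, those with the largest gap in CPM between the class means were DN15381_c0_g1_i1_1 and DN10534_c0_g1_i1_4 (higher), and DN6684_c0_g1_i1_5 and DN6341_c0_g2_i1_4 (lower). DN15381_c0_g1_i1_1 had 338.6, 454.0 and 472.6 CPM in trifluralin, 325.6, 602.1 and 381.2 in pendimethalin, 159.0, 162.9 and 150.6 in S-metolachlor, and 35.7, 56.7 and 46.7 in acetochlor. Control libraries had 65.3, 53.7 and 23.0 CPM, level with acetochlor and below S-metolachlor. The classes differed by 2.33 ± 0.25 (edgeR adjusted p = 6.83e-05), and all 4 pairs were called in all 22 alternatives. The dinitroanilines agreed, at a difference of 0.05 ± 0.33. Both chloroacetanilides were lower than both dinitroanilines, but acetochlor minus S-metolachlor was -1.76 ± 0.34 (edgeR adjusted p = 0.00181).

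DN10534_c0_g1_i1_4 had 293.0, 207.6 and 230.2 CPM in trifluralin, 312.1, 203.3 and 411.7 in pendimethalin, 16.6, 23.2 and 15.6 in S-metolachlor, and 20.4, 70.9 and 41.8 in acetochlor. The control levels of 236.0, 203.0 and 165.5 CPM were near those of the dinitroanilines and above every chloroacetanilide library. Between the classes the difference was 3.26 ± 0.29 (edgeR adjusted p = 2.28e-05), and the 4 pairs were called in all 22 alternatives. Both dinitroanilines agreed, at 0.34 ± 0.37. Both chloroacetanilides were called lower, but they were called apart by 1.27 ± 0.38 (edgeR adjusted p = 0.0196). That call was lost in 5 of the 22 alternatives, both limma fits and edgeR without S-metolachlor replicate 1 or 3 or acetochlor replicate 2 (adjusted p = 0.0685, 0.0726 and 0.111).

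DN6684_c0_g1_i1_5 had 619.3, 486.7 and 440.1 CPM in trifluralin, 347.5, 360.8 and 554.0 in pendimethalin, 1686, 1581 and 1815 in S-metolachlor, and 2213, 2355 and 2224 in acetochlor. The control libraries had 1349, 599.8 and 1772 CPM and spanned the gap between the classes. The class difference came to -2.07 ± 0.23 (edgeR adjusted p = 9.59e-05). Both herbicides agreed in each class, at -0.29 ± 0.32 for pendimethalin minus trifluralin and 0.42 ± 0.32 for acetochlor minus S-metolachlor (edgeR adjusted p = 0.327). The 4 pairs were called in 20 of the 22 alternatives.

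DN6341_c0_g2_i1_4 had 279.6, 197.1 and 173.5 CPM in trifluralin, 142.3, 294.7 and 214.2 in pendimethalin, 1370, 1139 and 1595 in S-metolachlor, and 1251, 452.8 and 440.6 in acetochlor. Control libraries had 383.5, 251.9 and 451.7 CPM, lower than all but 1 of the chloroacetanilide values. Class means differed by -2.19 ± 0.30 (edgeR adjusted p = 0.000331). The dinitroanilines agreed at 0.00 ± 0.40, and the chloroacetanilides were not called apart, at -0.94 ± 0.40 (edgeR adjusted p = 0.0864). All 4 pairs were called in 6 of the 22 alternatives, and acetochlor minus S-metolachlor was called without acetochlor replicate 1 (edgeR adjusted p = 0.00532) and in both limma fits (adjusted p = 0.0153 and 0.0141).

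**Figure D4:**
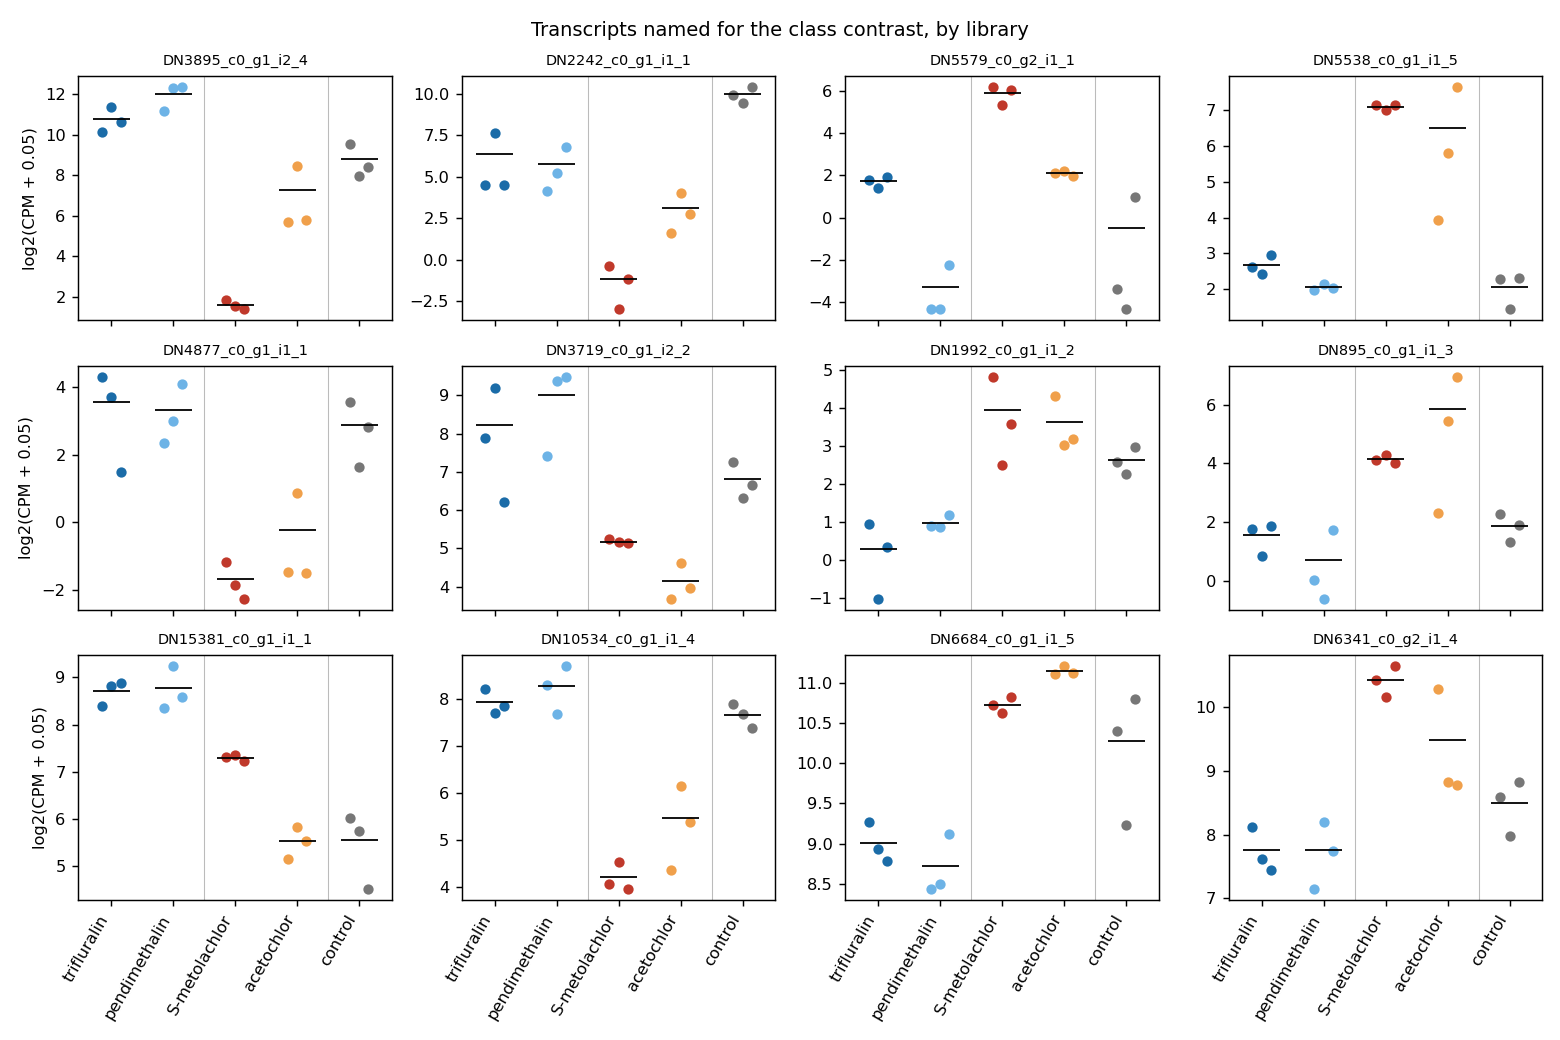
Levels of the 12 transcripts named for the class difference, as log2(CPM + 0.05) for each library (points), with 1 column per herbicide, dinitroanilines left of chloroacetanilides and control at the right. Horizontal bars are the log2 of the mean CPM of 3 libraries plus 0.05. In all 12 panels no dinitroaniline point lies among the chloroacetanilide points, and in 5 of them acetochlor and S-metolachlor were called apart.

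A large class difference could also come from S-metolachlor alone. The rule for these transcripts asked for calls against S-metolachlor in the dinitroaniline mean and in acetochlor and for no call between the dinitroaniline mean and acetochlor. With at least 10 CPM on the higher side and no overlap with the S-metolachlor libraries, 2449 of the 17555 tested transcripts met it. DN7825_c0_g1_i2_5 had 1164, 551.5 and 738.5 CPM in trifluralin, 299.5, 48.5 and 649.1 in pendimethalin, 0.237, 0.269 and 0 in S-metolachlor, and 1268, 1225 and 1072 in acetochlor. Control libraries had 41.3, 41.4 and 30.2 CPM. Acetochlor libraries overlapped only the highest trifluralin library, and S-metolachlor libraries lay far below all others, so the chloroacetanilides stood on opposite sides of the dinitroaniline mean. The S-metolachlor libraries held 13.22 expected counts in all, in steps of 6.945, which were taken as 2 fragments. The dinitroaniline level was 3330 times theirs. The 95% counting interval of 922 to 27500 rests on taking a step as a fragment. Its class difference of 5.18 ± 0.60 was nevertheless called (edgeR adjusted p = 0.000112). With 1 mean per class the difference was -0.05 (edgeR adjusted p = 0.989).

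DN4431_c0_g1_i2_1 had 87.2, 73.0 and 136.8 CPM in trifluralin, 8.23, 0.887 and 32.3 in pendimethalin, 0.0395, 0.0384 and 0.0397 in S-metolachlor, and 91.5, 101.2 and 85.7 in acetochlor. Control libraries had 0.325, 0.838 and 0.04999 CPM. Trifluralin and acetochlor were level and pendimethalin was lower, although pendimethalin minus trifluralin was not called (-2.84 ± 0.85, edgeR adjusted p = 0.353). It was called without pendimethalin replicate 3 (edgeR adjusted p = 0.0401) and with limma on log2(FPKM + 1) (adjusted p = 0.0327). The dinitroaniline level was 1030 times that of S-metolachlor, which rested on 4.173 expected counts, taken as 3 fragments (95% counting interval 354 to 5010). Across the classes the difference was 4.19 ± 0.79 (edgeR adjusted p = 0.00254), and 3.43 without pendimethalin replicate 3. With 1 mean per class it was 0.28 (edgeR adjusted p = 0.924). In both transcripts the dinitroanilines were on one side of S-metolachlor, and the chloroacetanilides disagreed. For DN7825_c0_g1_i2_5 both dinitroanilines were also below acetochlor and were not called apart (-1.30 ± 0.68, edgeR adjusted p = 0.756). For DN4431_c0_g1_i2_1 trifluralin minus acetochlor was 0.09 ± 0.79 and pendimethalin minus acetochlor was -2.75 ± 0.85, neither called. By the rule above, the dinitroanilines did not agree on DN4431_c0_g1_i2_1.

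DN9324_c0_g1_i1_1 and DN14595_c0_g1_i1_1 had no counts in any dinitroaniline library. DN9324_c0_g1_i1_1 had 40.8, 0.730 and 2.34 CPM in S-metolachlor and 0, 0.0469 and 0 in acetochlor, and 0.0464, 0.209 and 0.04999 in control libraries. DN14595_c0_g1_i1_1 had 30.4, 2.23 and 3.97 CPM in S-metolachlor and 0.0900, 0.0469 and 0 in acetochlor, and 0.139, 0 and 0.09997 in control libraries. S-metolachlor replicate 1 held most of both. Against a floor of 3 fragments over the 6 dinitroaniline libraries, DN9324_c0_g1_i1_1 was at least 559-fold lower in dinitroanilines than in S-metolachlor, and at least 58.8-fold lower without S-metolachlor replicate 1. For DN14595_c0_g1_i1_1 the bounds were 517-fold and 131-fold. The chloroacetanilides disagreed on both, and acetochlor was near the dinitroanilines. The class difference was called for DN14595_c0_g1_i1_1 (edgeR adjusted p = 0.0247), but not without acetochlor replicate 1 (0.136) or 2 (0.0654). For DN9324_c0_g1_i1_1 it was not called (edgeR adjusted p = 0.201), but it was with DESeq2 (adjusted p = 0.00306) and with 1 mean per class in edgeR (0.0431).

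The mirror case, with acetochlor apart from the dinitroaniline mean and from S-metolachlor, was met by 160 of the 17555 tested transcripts. Fewer calls were available to it, since 5.86% of transcripts were called against acetochlor and 41.3% against S-metolachlor. DN4227_c0_g1_i2_3 had 3.97, 11.0 and 9.80 CPM in trifluralin, 29.7, 52.2 and 1.64 in pendimethalin, 6.68, 3.15 and 10.4 in S-metolachlor, and 0.675, 0.984 and 0.270 in acetochlor. Control libraries had 0.186, 0.168 and 0.150 CPM. The dinitroaniline mean exceeded acetochlor by 4.56 ± 0.93 (edgeR adjusted p = 0.0185), a call lost without acetochlor replicate 1, 2 or 3 (edgeR adjusted p = 0.0807, 0.0547 and 0.0573). Pendimethalin minus acetochlor was called (edgeR adjusted p = 0.0148), and trifluralin minus acetochlor was not (0.0595). The classes differed by 2.87 ± 0.63 (edgeR adjusted p = 0.00615). S-metolachlor lay with the dinitroanilines, so the chloroacetanilides disagreed, by -3.39 ± 0.94 (edgeR adjusted p = 0.0131, and 0.0526 without acetochlor replicate 3). The dinitroanilines were not called apart.

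DN6390_c0_g1_i2_3 had 7.86, 73.5 and 55.3 CPM in trifluralin, 77.5, 264.5 and 5.55 in pendimethalin, 49.3, 15.1 and 44.0 in S-metolachlor, and 5.08, 2.34 and 4.17 in acetochlor. Control libraries had 4.55, 4.73 and 8.60 CPM. The dinitroaniline libraries spread widely and reached almost to those of acetochlor. The difference of 4.23 ± 1.06 against acetochlor (edgeR adjusted p = 0.0386) was lost when any of 11 libraries was left out, with edgeR adjusted p of 0.0504 to 0.128. Of the single pairs, pendimethalin minus acetochlor was called (edgeR adjusted p = 0.0436) and trifluralin minus acetochlor was not (0.0925). Between the classes the difference was 2.62 ± 0.73 (edgeR adjusted p = 0.0202), and it was 1.88 without pendimethalin replicate 2 (edgeR adjusted p = 0.0606). That call was also lost without S-metolachlor replicate 2, with the replicate block in edgeR (adjusted p = 0.0633), with 1 mean per class (0.155) and in both limma fits (0.116 and 0.122). The dinitroanilines were not called apart and the chloroacetanilides were, by -3.22 ± 1.06 (edgeR adjusted p = 0.0303). The chloroacetanilides were not called apart in 6 of the 22 alternatives, limma on log2(FPKM + 1) and edgeR without S-metolachlor replicate 1 or 3 or any acetochlor replicate (edgeR adjusted p = 0.0673 to 0.0974).

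The remaining transcripts were higher in acetochlor than in all other herbicide groups. DN11885_c0_g1_i1_2 had 0.205, 0.361 and 0.152 CPM in trifluralin, 0, 1.05 and 1.93 in pendimethalin, 0.237, 0.231 and 0.675 in S-metolachlor, and 7.29, 25.9 and 6.79 in acetochlor. Control libraries had 3.99, 1.05 and 8.05 CPM. The difference of the dinitroaniline mean from acetochlor was -4.76 ± 0.86 (edgeR adjusted p = 0.0108), and -3.83 without acetochlor replicate 2 (edgeR adjusted p = 0.0518). Here trifluralin minus acetochlor was called (edgeR adjusted p = 0.0363) and pendimethalin minus acetochlor was not (0.0806). The trifluralin libraries held 18.62 expected counts in all, in steps of 5.589, which were taken as 3 fragments. The trifluralin call and the side of S-metolachlor on which trifluralin lay therefore rest on few fragments. DN4789_c0_g1_i1_2 had 0.655, 3.25 and 0.114 CPM in trifluralin, 0.0376, 8.10 and 9.90 in pendimethalin, 2.29, 1.08 and 1.27 in S-metolachlor, and 46.0, 107.8 and 29.7 in acetochlor. Control libraries had 12.9, 3.56 and 22.1 CPM. Neither dinitroaniline was called against acetochlor by itself (edgeR adjusted p = 0.0567 for trifluralin and 0.154 for pendimethalin). The dinitroaniline mean differed from acetochlor by -4.43 ± 0.99 (edgeR adjusted p = 0.0257). That call was lost without trifluralin replicate 3 (edgeR adjusted p = 0.0571), acetochlor replicate 1 (0.0645) or acetochlor replicate 2 (0.0941, at a difference of -3.73), and the difference was -5.33 without trifluralin replicate 2. The class difference was not called for either (edgeR adjusted p = 0.0575 and 0.150). It was called for DN11885_c0_g1_i1_2 with DESeq2 (adjusted p = 0.0125), both limma fits, and edgeR without pendimethalin replicate 1 or 3 or control replicate 2 (0.0481, 0.0335 and 0.0491). For DN4789_c0_g1_i1_2 it was called with limma on log2(FPKM + 1) (adjusted p = 0.0292). The chloroacetanilides disagreed on both, with acetochlor higher by 5.11 ± 1.16 and 5.30 ± 1.36, and the dinitroanilines were not called apart. In both, trifluralin lay below S-metolachlor and pendimethalin above it, by differences that were not called. The dinitroanilines thus did not agree by the rule.

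**Figure D5:**
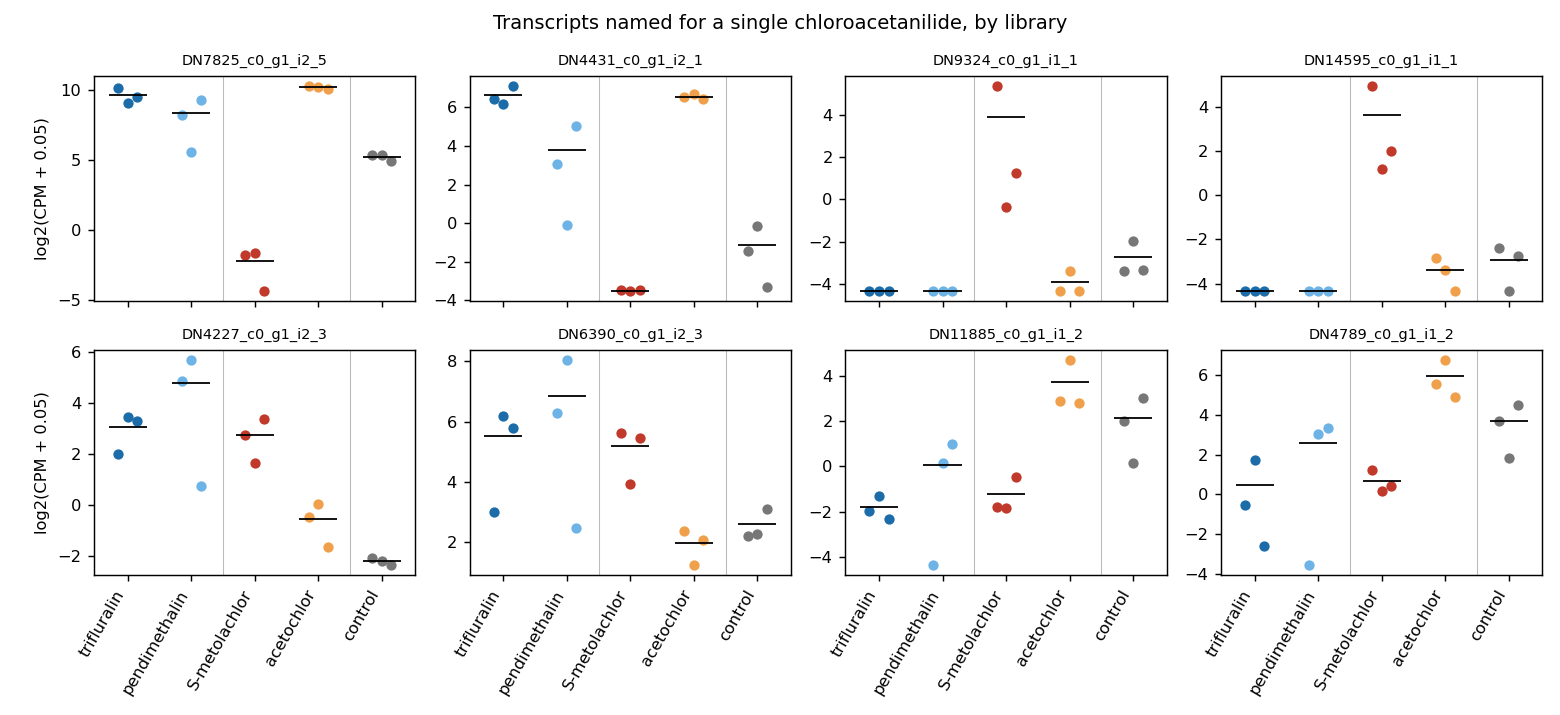
Levels of the 8 transcripts in which 1 chloroacetanilide differed from the dinitroaniline mean and from the other chloroacetanilide, as log2(CPM + 0.05) for each library (points), with bars at the log2 of the group mean CPM plus 0.05. Groups run from dinitroanilines at the left to control at the right. The top row shows S-metolachlor apart, with replicate 1 far above the other libraries in the last 2 panels, and the bottom row shows acetochlor apart.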

How the data were processed

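RNA was sequenced from mycelium in 15 libraries, 3 per group, by the labels' treatment field. The authors deposited expected counts per transcript and, in a further table, FPKM values (fragment numbers scaled by transcript length and library total). The tools Bowtie2, DESeq and Trimmomatic and the mouse build mm10 are named per the submitters' processing notes, although the row names look like those of a Trinity assembly. Counting program, assembler settings and strandedness were not given in the sources used here. Where near-identical transcripts or isoforms share reads, the value of a single transcript is uncertain.

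Expected counts were rounded to whole numbers and analysed with edgeR 4.0.16 in R 4.3.3. Transcripts were kept by filterByExpr (minimum count 10, minimum total 15), library sizes were scaled by TMM, and a quasi-likelihood model with 1 mean per group was fitted over all 15 libraries. CPM use the TMM-scaled library sizes. The class difference averages log2 values, so it can differ from the ratio of mean CPM. The counting intervals (95%) and the floor of 3 fragments use unscaled totals and cover counting error only. A fragment was taken as the smallest step of a transcript's expected counts, an assumption that was not tested. Such a step can exceed 1 expected count. The scripts were tested on simulated data.

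The members, lists and rules were chosen with earlier results of these data known. For each of 6 lists, at most 2 transcripts higher and 2 lower were named, with a mean of at least 10 CPM on the higher side, and a transcript of an earlier list was passed over. Lists 1 to 3 needed a called class difference. List 1 took the largest class differences without overlap between the libraries of the classes. List 2 took all 4 pairs called and no within-class call, ranked by the smallest pair difference, and list 3 took all 4 pairs called without overlap, ranked by the gap in CPM. Lists 4 and 5 took 1 chloroacetanilide apart from the dinitroaniline mean and from the other chloroacetanilide, ranked by difference. List 6, opposite sides of control, was empty. Alternatives were RLE size factors, no filter, DESeq2 1.42.0, limma 3.58.1 on log2(FPKM + 0.1) and log2(FPKM + 1), the 12 herbicide libraries alone, a replicate block, other units of the class, and each library left out. The limma fits kept transcripts with at least 1 FPKM in at least 3 libraries.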

Additional observations from a re-analysis of the deposited data

Results flagged for a closer look

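Among the 4191 transcripts called between the classes, S-metolachlor and acetochlor differed from the dinitroaniline mean by unequal amounts in 2463, by the test of acetochlor minus S-metolachlor (edgeR adjusted p under 0.05). Trifluralin and pendimethalin differed from the chloroacetanilide mean by unequal amounts in 38, by the test of pendimethalin minus trifluralin.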

How the results depend on the processing

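The class count of 4191 was 3539 to 5338 under other size factors, no filter, DESeq2, limma on FPKM, the 12 herbicide libraries alone and the replicate block. It was 2293 with 1 mean per class and 0 with herbicide means as replicates, where fewer units enter the fit. It was 2991 to 4652 with 1 library left out. The count of transcripts called in all 4 cross-class pairs (64, 54.7% higher in dinitroanilines) was 42 with no filter on low counts (42.9% higher), 289 with DESeq2 and 30 with the replicate block (43.3% higher). It was 12 to 197 with 1 library left out. Against S-metolachlor the count of 7246 was 6672 to 8022 under these alternatives, and 5344 to 7730 with 1 library left out. Against acetochlor the count of 1029 (44.0% higher) was 2471 with DESeq2, 442 with the replicate block and 827 with limma on log2(FPKM + 0.1) (55.5% higher). It was 251 to 2220 with 1 library left out. Pairs with acetochlor moved as well, with 1820 calls for trifluralin and 1644 for pendimethalin with DESeq2, and 94 and 264 with the replicate block. Trifluralin minus acetochlor had 246 with no filter and 248 with the 12 herbicide libraries alone. Pendimethalin minus trifluralin had 218 with DESeq2. The 393 called against each chloroacetanilide became 921 with DESeq2 and 179 with the replicate block. The share of class calls also called against acetochlor (14.6%) was 26.0% with DESeq2 and 7.57% with the replicate block. Of the transcripts lower in trifluralin than in acetochlor, the 32.8% also lower in pendimethalin than in S-metolachlor were 54.9% with the replicate block. Leaving out a library also widened the tested set, to 18040 to 18486 transcripts. The cause of the moves with DESeq2, the filter and single libraries was not tested.

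No pairing of libraries by replicate number was detected, which does not exclude one. The deviations of same-numbered libraries of different groups correlated at a median of -0.0271 over 30 pairs, with 5 over 0.1, and those of different numbers at 0.0104 over 60 pairs. With the replicate block the class count was 3539, of which 3486 were among the 4191, and 28 of the 30 joint calls were among the 64.

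The 12 transcripts named for the class difference kept its call in all alternatives, apart from the herbicide means as replicates and, for DN5579_c0_g2_i1_1, 1 mean per class (edgeR adjusted p = 0.0525). The class difference of DN7825_c0_g1_i2_5 was -0.0469 with 1 mean per class. Depth limits transcripts near the floor of 3 fragments, and 11.2% of the least abundant bin were called.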
